A study of Dendrobium catenatum with 16 samples.

Results

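The cell cycle and mitosis genes of Dendrobium catenatum, an orchid grown as a medicinal plant, were followed through 16 RNA-sequencing libraries of cultured plantlets. They are the genes whose description in the deposited annotation holds a word for a cyclin, a cyclin-dependent kinase (CDK), a replication licensing factor, proliferating cell nuclear antigen (PCNA), a kinesin, a cell division control or cycle protein, a mitotic protein or an Aurora kinase, histones left out. The rule found 171 genes among 28537 annotated features. Of these, 169 were also in the table of the first experiment, which holds 23063 features, and the other 2 are kinesin-domain loci without a gene number.

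Plants pass through the division cycle by pairing CDKs with cyclins whose levels rise and fall. D-type cyclins act with A-type CDK at the entry into the cycle, MCM helicase and PCNA act in DNA replication, and A- and B-type cyclins with the plant-specific B-type CDKs act towards mitosis. Kinesins move along the microtubules of the spindle and of the phragmoplast, the structure that builds the new cell wall, and CDC20 proteins activate the complex that degrades mitotic cyclins. In shoots these genes are most active in meristems and young organs, and cytokinin and auxin, the hormone classes of 6-BA (6-benzyladenine) and NAA (1-naphthaleneacetic acid), are known to act on division.

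Every library was made from poly(A)-selected RNA of young leaves, stems and shoots of plantlets raised on half-strength Murashige and Skoog medium. The first experiment used 2-month-old plantlets kept for 3 weeks with 0.1 mg/L NAA plus 1.0 mg/L 6-BA, with 1.0 mg/L 6-BA, with 0.1 mg/L NAA or with distilled water, 2 libraries each. The second used 9-month-old plantlets with 6-BA at doses of 0 (distilled water), 0.5, 1.0 or 2.0 mg/L for 2 or 4 weeks, 1 library for each combination. Both libraries of a treatment are labelled biological replicates, with no word on whether they came from separate vessels, and the p-values thus measure the spread between these libraries, which may in part be technical. The number of plantlets behind a library is not stated. In such tissue, fewer dividing cells and less RNA per cell cannot be told apart.

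Library totals ran between 34289743 and 74461337 counts for the first experiment, and for the second between 15090869 and 16257836 counts. The genes took 0.605% to 0.673% of the counts of a library in the first experiment. In the second they took 0.449% to 0.884%. Levels below are CPM (counts per 1000000 counts) after TMM scaling. FPKM, which corrects for transcript length, is used to compare genes with each other and in an alternative test, limma on log2(FPKM + 1). The 19 leaf mesophyll markers (chlorophyll-binding and Rubisco small-subunit genes) summed to 27310 to 34450 CPM in libraries of the first experiment. They summed to 12950 to 41920 CPM in those of the second. The 24 shoot meristem markers summed to 372.1 to 500.8 CPM in the second experiment, where 1 of them was at 0 in every library, and to 365.1 to 411.0 CPM in the first. The root list of 36 genes, mostly scarecrow-like proteins that shoots also make, summed to 798.3 to 967.9 CPM in the second experiment and 984.4 to 1055 CPM in the first.

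By their descriptions the genes were sorted into 16 roles. Kinesins are the most numerous with 63 genes, followed by 16 D-type cyclins, 15 other cyclins, 14 other cell division proteins, 10 other CDKs, 9 CDK inhibitors and 9 CDC48 ATPases. There are 7 MCM helicase genes, 6 B-type cyclins, 6 spindle checkpoint genes, 5 A-type cyclins, 4 Aurora kinases, 3 PCNA genes, 2 B-type CDKs, 1 A-type CDK and 1 CDK regulatory subunit. The words also take in genes whose known work is not confined to division, such as CDC48, a protein-unfolding ATPase, the kinesin light chains, and the transcription-linked cyclins T, C and L with CDKC and CDKE. Calcyclin-binding protein (LOC110103131) was matched by its name alone and was placed by hand with the other cell division proteins. Cyclin-B1-2 (LOC110099071) carries no cyclin domain in its deposited annotation.

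Per transcript length, the highest mean levels in the second experiment belonged to genes outside the core of the cycle. Cyclin-B1-2 averaged 221 FPKM over the 8 libraries, calcyclin-binding protein 194 FPKM and a CDC48 homolog (LOC110094823) 119 FPKM. Among the core genes, CDC2 homolog A (LOC110103529), the A-type CDK, averaged 68.2 FPKM, and CDK regulatory subunit 1 (LOC110095280), a docking protein of CDK complexes, averaged 70.5 FPKM. CDKB2-1 (LOC110106063) averaged 22.0 FPKM, PCNA (LOC110115887) 27.4 FPKM, cyclin-B1-1 (LOC110096329) 18.7 FPKM and MCM2 (LOC110102205) 14.1 FPKM. In the first experiment the averages of these genes were 76.7 FPKM for CDC2 homolog A, 86.1 for CDK regulatory subunit 1, 27.0 for CDKB2-1, 29.6 for PCNA, 20.2 for cyclin-B1-1 and 20.6 for MCM2, from a table normalized separately.

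**Figure D1:**
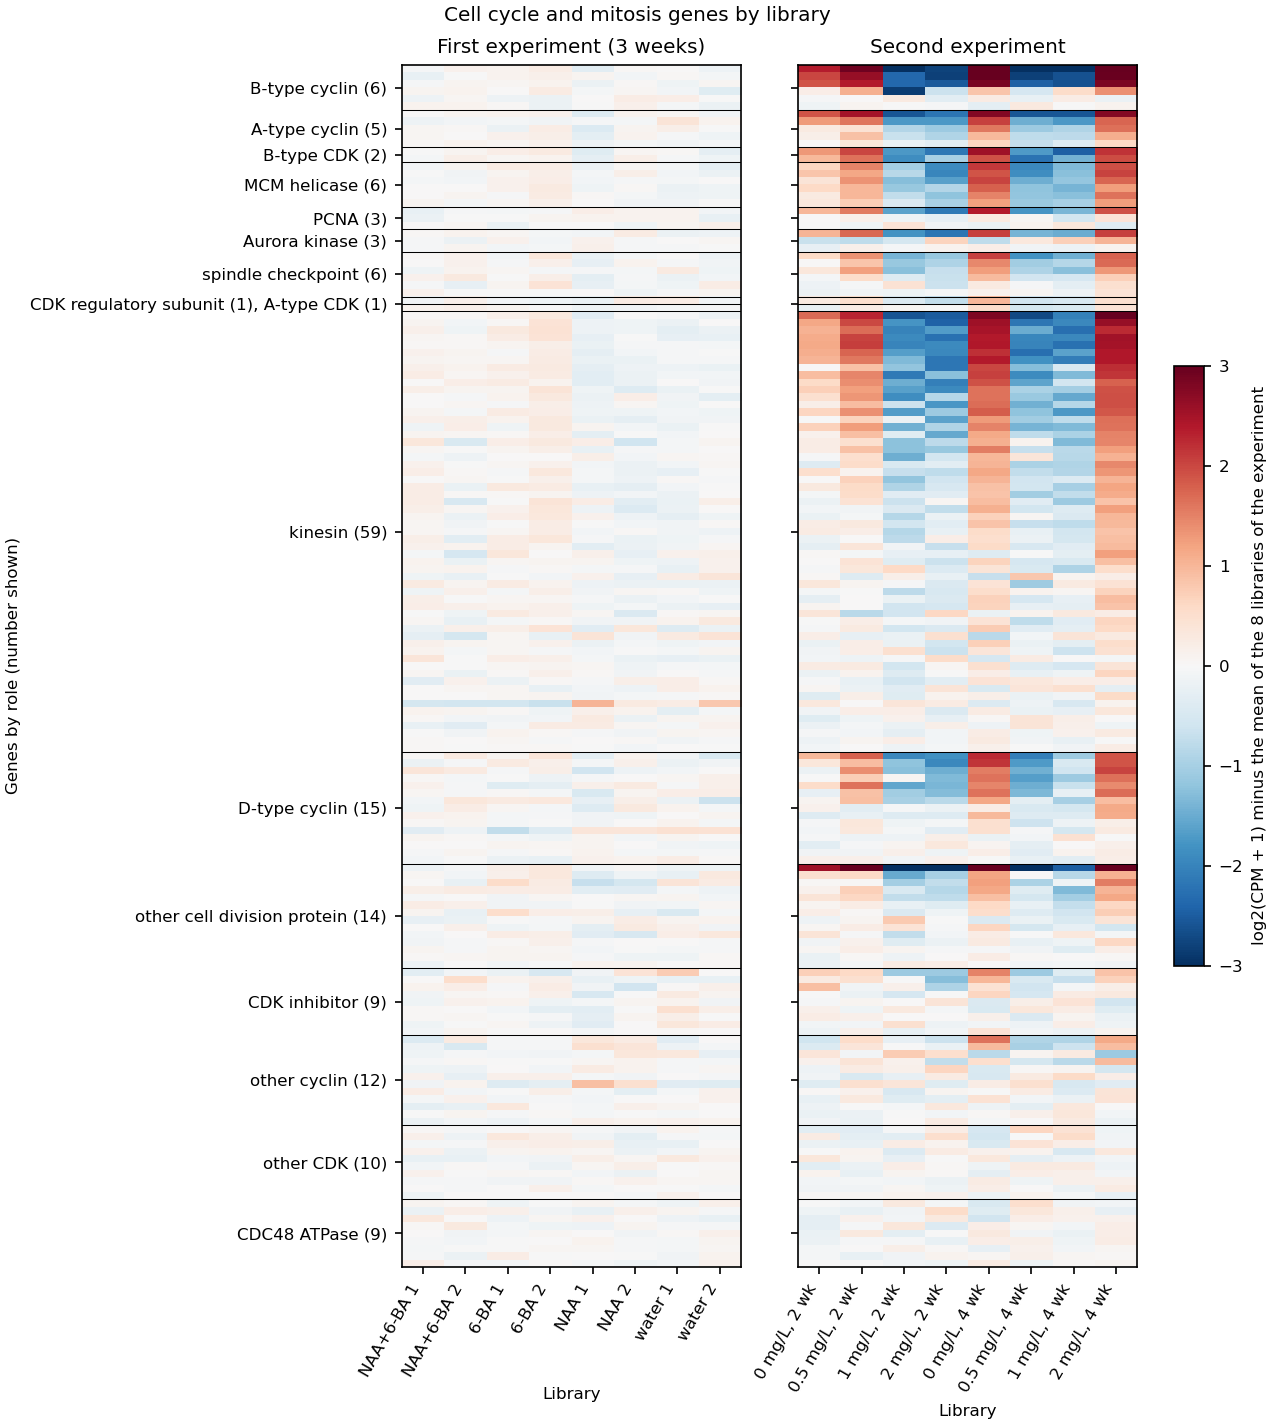
Level of each cell cycle and mitosis gene tested in both experiments (rows, grouped by role) in each library (columns), as log2(CPM + 1) minus the mean of the 8 libraries of its experiment. Colour varies little across the first experiment, while in the second the B-type CDK, A-type cyclin and MCM rows are red in the libraries at 0 and 0.5 mg/L for 2 weeks and at 0 and 2.0 mg/L for 4 weeks, and blue in the other 4.

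The first question was whether 6-BA and NAA, alone or together, moved these genes in the young plantlets. With 6-BA against water, 6 of the 166 genes tested were higher and 3 were lower at an adjusted p of at most 0.05 in edgeR's quasi-likelihood test (Benjamini-Hochberg). That is 5.42% of them, against 7.31% of all 19420 genes tested. By direction, 3.61% of them were higher, against 3.11% of all genes, and 1.81% were lower, against 4.20%. The median log2 fold change was 0.10 over the cell cycle and mitosis genes and 0.00 over all genes tested.

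The 6 genes that rose with 6-BA included 4 kinesins. KIN-7A (LOC110109302), whose Arabidopsis counterpart works in cytokinesis, had 13.4 and 14.9 CPM in 6-BA libraries, against 8.66 and 9.48 CPM in water libraries. Its log2 fold change was 0.64 (SE 0.15, edgeR adjusted p = 0.0272), and the groups did not overlap. KIN-10C (LOC110094173) had 14.7 and 16.9 CPM with 6-BA, against 10.5 and 10.6 CPM in water libraries (log2 fold change 0.59, SE 0.13, edgeR adjusted p = 0.0280). KIN-7F (LOC110101718) had 21.8 and 22.2 CPM with 6-BA, against 16.5 and 15.8 CPM in water libraries, a log2 fold change of 0.45. It overlaps a gene on the other strand, and whether strand was used in counting is not stated. The kinesin KIN-12A (LOC110102347), of a family found at the phragmoplast in Arabidopsis, rose by 0.35 on the log2 scale. Each of these 4 kinesins has another gene of the same description that did not pass. They are LOC110099751 for KIN-7A, LOC110097903 for KIN-10C, LOC110096212 for KIN-7F and LOC110107743 for KIN-12A.

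The other 2 rises were in mitotic exit and replication. A CDC20.2-like gene (LOC110115801) had 36.0 and 39.8 CPM with 6-BA, against 29.1 and 29.0 CPM in water libraries (log2 fold change 0.39, SE 0.10, edgeR adjusted p = 0.0390). MCM6 (LOC110097093), a subunit of the helicase that opens DNA for replication, had 42.2 and 46.8 CPM with 6-BA, against 33.9 and 35.4 CPM in water libraries. Its log2 fold change was 0.36. The summed level of the 7 MCM genes was 261.9 and 280.4 CPM with 6-BA, against 225.5 and 223.2 CPM in water libraries, although no other MCM gene passed the test.

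Cyclin-D4-1 (LOC110115423), a D-type cyclin, was the fall with the lowest p. It had 4.25 and 5.73 CPM in 6-BA libraries, against 11.1 and 10.8 CPM in water libraries. The log2 fold change was -1.14 (SE 0.17, edgeR adjusted p = 0.00442). With both hormones it had 5.95 and 6.93 CPM, and with NAA alone 10.4 and 10.3 CPM, and the 4 libraries with 6-BA all lay below the 4 without. The D-type cyclins as a class did not share this: their summed level was 392.2 and 400.5 CPM with 6-BA, against 395.4 and 385.7 CPM in water libraries, and 1 of 16 passed the test. A second gene described as cyclin-D4-1 (LOC110105304) did not pass.

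The other 2 falls were a KIN-5A gene and a CDK inhibitor. The KIN-5A gene (LOC114580584), 1 of several so described, stood at a low level, with 0.309 and 0.206 CPM in 6-BA libraries, against 1.25 and 2.37 CPM in water libraries (log2 fold change -2.80, SE 0.53, edgeR adjusted p = 0.0116). Libraries with both hormones had 0.342 and 0.310 CPM and those with NAA 2.90 and 1.31 CPM. Reads could have been split among the KIN-5A copies, and of these LOC110106002 carried far more, 47.9 to 59.3 CPM over the 8 libraries. CDK inhibitor 1 (LOC110101595), of a family that blocks CDK complexes, had 58.0 and 49.6 CPM with 6-BA, against 85.8 and 69.2 CPM in water libraries (log2 fold change -0.53, edgeR adjusted p = 0.0441).

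The count of 9 rested on single libraries: 2 genes were called without either water library, and 1 without either 6-BA library. KIN-5A (LOC114580584) did not pass without the second water library, without either 6-BA library or by limma. Cyclin-D4-1 passed under all 14 alternatives tried. Of the root list 1 of 36, 2.78%, was higher and 6, 16.7%, were lower with 6-BA against water. Of the leaf mesophyll markers 1 of 19, 5.26%, was higher, and of the shoot meristem markers 1 of 23, 4.35%. Of all genes tested, 3.11% were higher and 4.20% lower. The part of these lists in the calls was not tested.

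**Figure D2:**
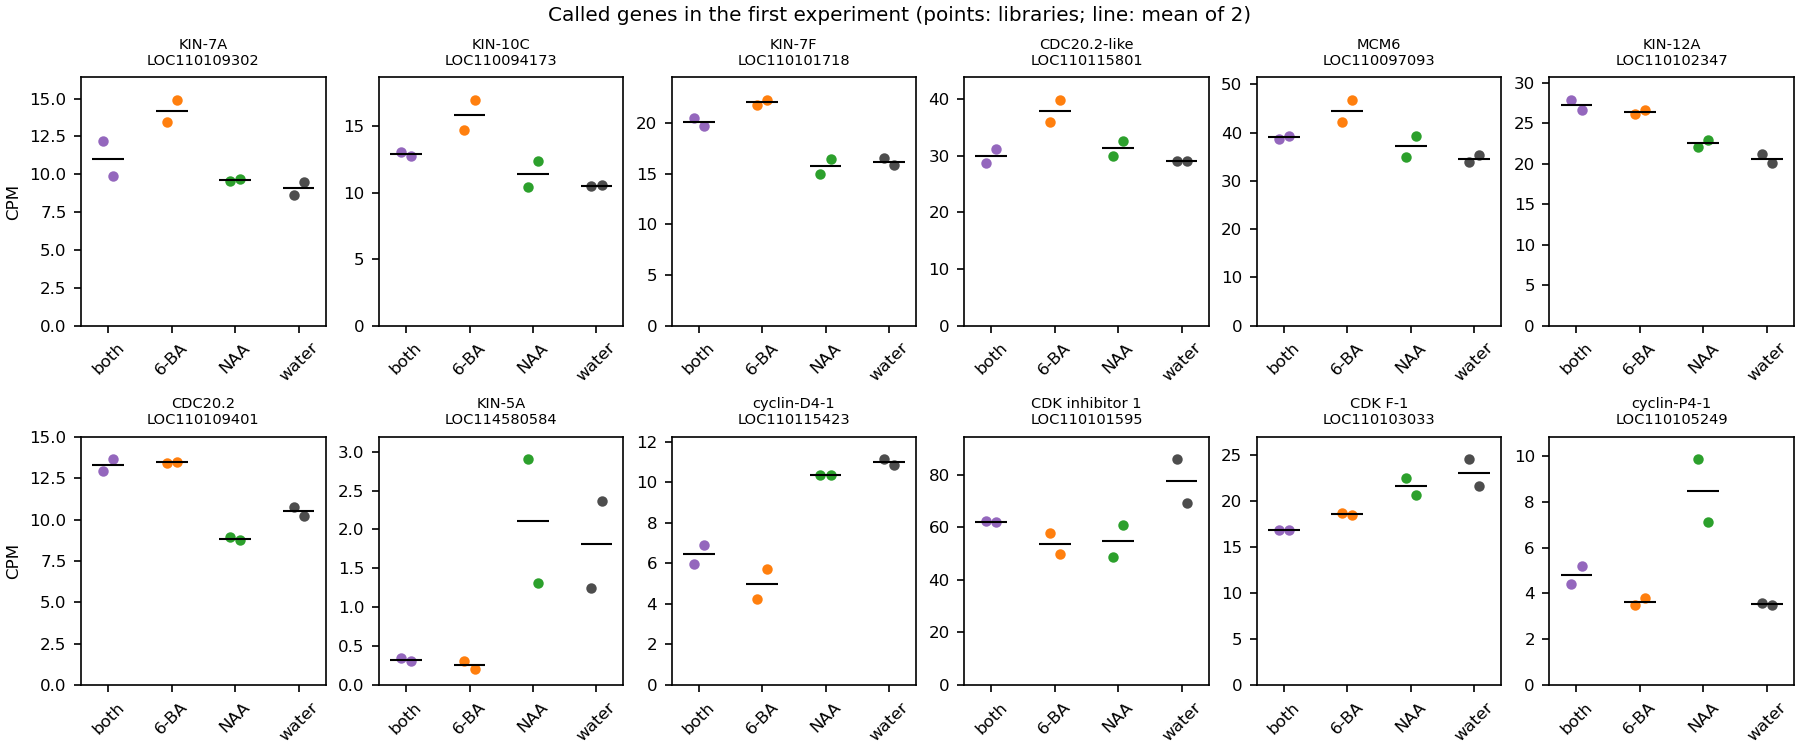
CPM of 12 genes called in the first experiment, by treatment (both hormones, 6-BA, NAA, water); points are libraries and lines the mean of 2. Cyclin-D4-1 and KIN-5A (LOC114580584) are lower in all 4 libraries with 6-BA than in the 4 without, and KIN-7F and CDC20.2 (LOC110109401) are higher.

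NAA alone was followed by fewer calls. It gave 1 gene higher and 2 lower of 166, which is 1.81%, against 2.23% of all genes tested (1.41% higher and 0.824% lower). Cyclin-P4-1 (LOC110105249) had 9.86 and 7.12 CPM in NAA libraries, against 3.58 and 3.49 CPM in water libraries (log2 fold change 1.26, SE 0.21, edgeR adjusted p = 0.0133). Libraries with both hormones had 4.42 and 5.21 CPM and those with 6-BA 3.47 and 3.802 CPM, so the high values stood in the NAA libraries alone. Both falls were CDC20.2 genes. The first (LOC110101602) had 4.05 and 4.65 CPM in NAA libraries, against 9.65 and 8.56 CPM in water libraries (log2 fold change -1.07, edgeR adjusted p = 0.0178). The second (LOC110096787) had 6.00 and 5.36 CPM in NAA libraries, against 9.14 and 10.03 CPM in water libraries (log2 fold change -0.75, edgeR adjusted p = 0.0301). Without either water library, or without the first NAA library, 0 genes passed.

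The 3 comparisons against water share the same 2 water libraries. With both hormones against water, 1 gene was higher and 3 were lower of 166, or 2.41%, against 7.08% of all genes (3.01% higher and 4.06% lower). KIN-12A had 27.9 and 26.6 CPM with both hormones, against 21.2 and 20.0 CPM in water libraries (log2 fold change 0.40, SE 0.09, edgeR adjusted p = 0.0287). KIN-5A (LOC114580584) fell by 2.46 and cyclin-D4-1 by 0.77 on the log2 scale. CDKF-1 (LOC110103033), a kinase that activates other CDKs in Arabidopsis, had 16.8 and 16.9 CPM with both hormones, against 24.5 and 21.6 CPM in water libraries (log2 fold change -0.45, edgeR adjusted p = 0.0324). The count lay between 0 and 2 without any 1 of the water, 6-BA or both-hormone libraries. No gene passed for the interaction of the hormones by edgeR's test, against 0.520% of all genes (0.154% higher and 0.366% lower); 12 had an unadjusted p under 0.05, and DESeq2 called 1.

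Setting the 4 libraries with 6-BA against the 4 without gave more calls than any single treatment. In this comparison, fitted with NAA as a second term, 16 genes were higher and 4 were lower of 166, or 12.0%, against 13.4% of all 19303 genes tested. Higher genes made up 9.64% of them, against 5.92% of all genes, and lower genes 2.41%, against 7.46%. The median log2 fold change was 0.09 over these genes and 0.00 over all genes.

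Of the 16 rises, 13 were kinesins, out of 60 kinesins tested, with log2 fold changes of 0.22 to 0.42. Among all genes tested, 5.92% were higher. KIN-7F had 20.4 and 19.7 CPM with both hormones and 21.8 and 22.2 CPM with 6-BA, against 14.9 and 16.5 CPM with NAA and 16.5 and 15.8 CPM with water (log2 fold change 0.40, SE 0.07, edgeR adjusted p = 0.00545). KIN-12G (LOC110098818) had 35.8 to 41.2 CPM in the 4 libraries with 6-BA, against 27.5 to 32.4 CPM in the 4 without. KIN-14R (LOC110102077), of the minus-end-directed kinesins, had 20.6 to 23.6 CPM, against 15.7 to 17.8 CPM. KIN-14F (LOC110100861) had 7.96 to 9.15 CPM, against 6.39 to 6.57 CPM. In each of these the libraries with and without 6-BA did not overlap. KIN-7F, KIN-12G and KIN-14R passed under all 14 alternatives tried, but KIN-14F no longer passed under 7 of them, limma included. Other kinesin calls were also unstable, such as KIN-UB (LOC110100540), which no longer passed under 10.

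The other 3 rises were CDC20.2, a CDK inhibitor and a checkpoint gene. CDC20.2 (LOC110109401) had 12.97 to 13.65 CPM in the libraries with 6-BA, against 8.76 to 10.8 CPM in those without (log2 fold change 0.47, SE 0.09, edgeR adjusted p = 0.00708). CDK inhibitor 5 (LOC110106646) rose by 0.45 on the log2 scale, while CDK inhibitor 1 did not pass here. BUB3.1 (LOC110103511), part of the spindle checkpoint, which holds mitosis until chromosomes are attached, rose by 0.31. No A- or B-type cyclin, MCM, PCNA, Aurora or B-type or A-type CDK gene passed by edgeR's test in this comparison. Each of these classes holds between 1 and 7 tested genes, and 13.4% of all genes tested passed.

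The 4 falls were KIN-5A (LOC114580584, -2.74), cyclin-D4-1 (-0.91), CDKF-1 (-0.34) and cyclin-C1-1 (LOC110093121, -0.25), as log2 fold changes. Cyclin-C1-1, a partner of a transcription-linked CDK, had 71.2 to 77.0 CPM with 6-BA, against 86.9 to 89.5 CPM without. The counts without 1 library were lowest, at 9, without the first water library; they were 10 or 11 without the second water library, without either 6-BA library or without the first library with both hormones. For NAA averaged over 6-BA, 0 of 166 genes passed, against 0% of all genes; 13 had an unadjusted p under 0.05 and DESeq2 called 3.

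The wider division pathway, 126 genes outside the rule such as condensins, origin proteins, E2F factors and 65-kDa microtubule-associated proteins, was read from the same fits. With 6-BA against water, 4 of 122 tested were higher, 3.28% against 3.11% of all genes, and 0 were lower by edgeR, against 4.20% of all genes (18 had an unadjusted p under 0.05). They included 65-kDa microtubule-associated protein 1 (LOC110092618), of a family that bundles microtubules, with 50.4 and 53.3 CPM in 6-BA libraries, against 34.4 and 34.7 CPM in water libraries (log2 fold change 0.58, edgeR adjusted p = 0.00233). A gene for 65-kDa microtubule-associated protein 6-like (LOC110111566) had 101.1 and 87.5 CPM, against 61.4 and 56.1 CPM (log2 fold change 0.68, edgeR adjusted p = 0.00297). Averaged over NAA, 6-BA gave 8 higher, 6.56% against 5.92% of all genes, and 1 lower, 0.820% against 7.46%, the fall being in MYB3R-3 (LOC110110250, log2 fold change -0.49), a repressor of mitotic genes in Arabidopsis. Another gene for 65-kDa microtubule-associated protein 6-like (LOC110110182) rose by 0.35 in that comparison. A second gene described as MYB3R-3 (LOC110108439) did not pass there. It had 9.86 to 12.6 CPM in libraries with 6-BA, against 8.73 to 11.5 CPM in those without. With both hormones 3 were higher, 2.46% against 3.01% of all genes, and 1 lower, 0.820% against 4.06%. With NAA 1 was higher, 0.820% against 1.41% of all genes, and 0 were lower by edgeR, against 0.824% (7 at an unadjusted p under 0.05). The rise was in FIZZY-RELATED 2 (LOC110094715), an activator of cyclin degradation. It had 67.5 and 57.7 CPM in NAA libraries, against 41.8 and 45.2 CPM in water libraries (edgeR adjusted p = 0.0380). This call did not hold under limma or with the replicate block. A second gene described as FIZZY-RELATED 2 (LOC110108205) was not called, with 28.62 and 33.65 CPM in NAA libraries, against 35.58 and 31.24 CPM in water libraries.

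The second question was how the genes followed the dose and duration of 6-BA in older plantlets. Their levels varied far more there than in the first experiment, and followed neither dose nor week alone. With 1 library for each combination, a difference between conditions and one between single libraries cannot be told apart, and the labels of these libraries could not be checked against a second source. Over the 8 libraries, the median range of log2(CPM + 1) was 1.5 for the 163 genes tested, against 1.08 for all 21267 features tested. In the first experiment it was 0.448, against 0.429 for all genes. A range over 2 was found in 61 genes or 37.4%, against 17.2% of all features. A range over 3 was found in 39 genes or 23.9%, against 6.16% of all features, and a range over 1 in 111 genes or 68.1%, against 55.1%. In the first experiment 5 of the 161 genes tested in both, 3.11%, had a range over 1, against 8.40% of all genes.

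**Figure D3:**
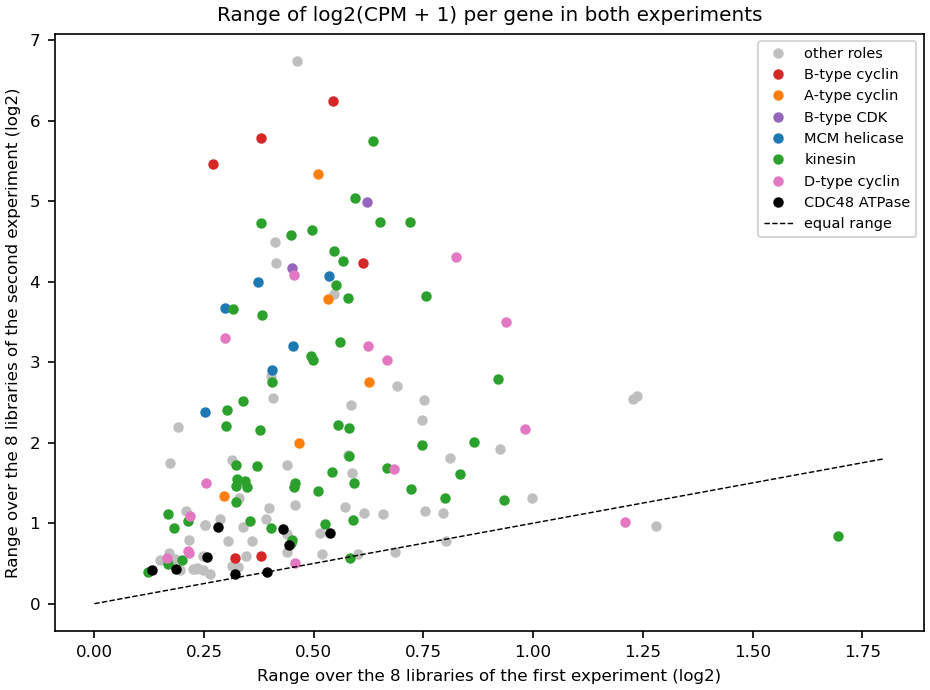
Range of log2(CPM + 1) of each gene over the 8 libraries of the first experiment (x axis) and of the second (y axis), coloured by role, with a dashed line at equal range. A-type cyclins, B-type CDKs and MCM genes lie above the line, and CDC48 genes stay at 0.957 or less on the y axis.

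The B-type cyclins, which drive mitosis, had the widest median range of the 16 roles, 4.84 on the log2 scale. Cyclin-B1-1 had 625, 1003, 0 and 2 counts at 0, 0.5, 1.0 and then 2.0 mg/L for 2 weeks, and 1303, 0, 0 and 1241 counts at the same doses for 4 weeks. It was thus abundant in 4 libraries and at or near 0 in the other 4, in an order that reverses between the weeks at 0.5 and 2.0 mg/L. Relative to 0 mg/L at the matching week, with a floor of 3 counts per library, it was at least 181-fold lower at 1.0 mg/L for 2 weeks. At 4 weeks it was at least 382.5-fold lower at 0.5 mg/L and at least 373-fold lower at 1.0 mg/L. At 2.0 mg/L for 2 weeks the 0 mg/L level was 269.5-fold higher, with a 95% counting interval of 74.3 to 2230. Cyclin-B1-1 overlaps another gene on the same strand.

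A pair of genes described as G2/mitotic-specific cyclin-2-like had the same layout. LOC110097268 had 431, 720, 5 and 0 counts at the rising doses for 2 weeks and 941, 0, 2 and 927 for 4 weeks. LOC110114934, which also overlaps a gene on its strand, had 369, 576, 4 and 2 counts for 2 weeks and 798, 3, 1 and 797 for 4 weeks. The other 3 B-type cyclins differed from these. G2/mitotic-specific cyclin S13-7 (LOC110114574) kept 54 to 155 counts in 3 of the 4 libraries where cyclin-B1-1 was near 0. Cyclin-B1-2 stayed between 114.3 and 172.5 CPM, and putative cyclin-B3-1 (LOC110112667) between 15.8 and 24.1 CPM.

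The A-type cyclins, which act from replication into mitosis, were lowest in the same 4 libraries in 5 of 5 genes, against 14.0% of all features. Cyclin-A1-4 (LOC110103887) had 336, 559, 0 and 4 counts at the rising doses for 2 weeks and 689, 0, 0 and 685 for 4 weeks. Cyclin-A2-1-like (LOC110092169) varied less, with 19.7, 24.9, 16.8 and 15.5 CPM for 2 weeks and 31.1, 11.7, 14.8 and 30.0 CPM for 4 weeks. The summed A-type cyclins stood at 18.8 to 24.4 CPM in the 4 low libraries and at 63.7 CPM or more in each of the others.

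The B-type CDKs had the same layout. CDKB2-1 had 30.7, 50.3, 2.89 and 1.90 CPM at 0, 0.5, 1.0 and then 2.0 mg/L for 2 weeks and 73.4, 2.93, 1.34 and 56.8 CPM for 4 weeks. CDKB1-1 (LOC110098343), which overlaps a gene on the other strand, had 17.7, 28.1, 1.59 and 3.79 CPM for 2 weeks and 34.6, 1.04, 2.54 and 35.8 CPM for 4 weeks. The A-type CDK kept its level within a narrower band. CDC2 homolog A had 80.8, 111.2, 98.5 and 93.5 CPM for 2 weeks and 137.9, 65.8, 68.2 and 125.8 CPM for 4 weeks, so at 2 weeks none of the doses was below 0 mg/L. CDK regulatory subunit 1 had 53.6, 62.9, 32.5 and 26.2 CPM for 2 weeks and 89.2, 29.5, 31.4 and 62.7 CPM for 4 weeks.

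Among the replication genes, the 6 MCM genes tested were all lowest in the 4 libraries where cyclin-B1-1 was lowest, against 14.0% of all features. The seventh, an MCM3 homolog (LOC110093820), had 1 count in all. Summed, they stood at 172.9, 268.0, 67.4 and 48.1 CPM at the rising doses for 2 weeks and at 419.8, 44.9, 50.6 and 380.6 CPM for 4 weeks. MCM5 (LOC110105565) had 28.2, 50.7, 8.17 and 4.01 CPM for 2 weeks and 80.1, 3.85, 6.41 and 69.5 CPM for 4 weeks. PCNA (LOC110115887), the sliding clamp of DNA polymerase, had 34.5, 51.5, 4.84 and 3.06 CPM for 2 weeks and 90.8, 4.17, 5.88 and 65.9 CPM for 4 weeks. The other 2 PCNA genes did not share its 4 lowest libraries. LOC110114155 stayed between 7.68 and 15.8 CPM, and LOC110105895 had 5.85, 5.33, 8.17 and 5.40 CPM for 2 weeks and 4.995, 6.39, 7.75 and 4.34 CPM for 4 weeks.

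**Figure D4:**
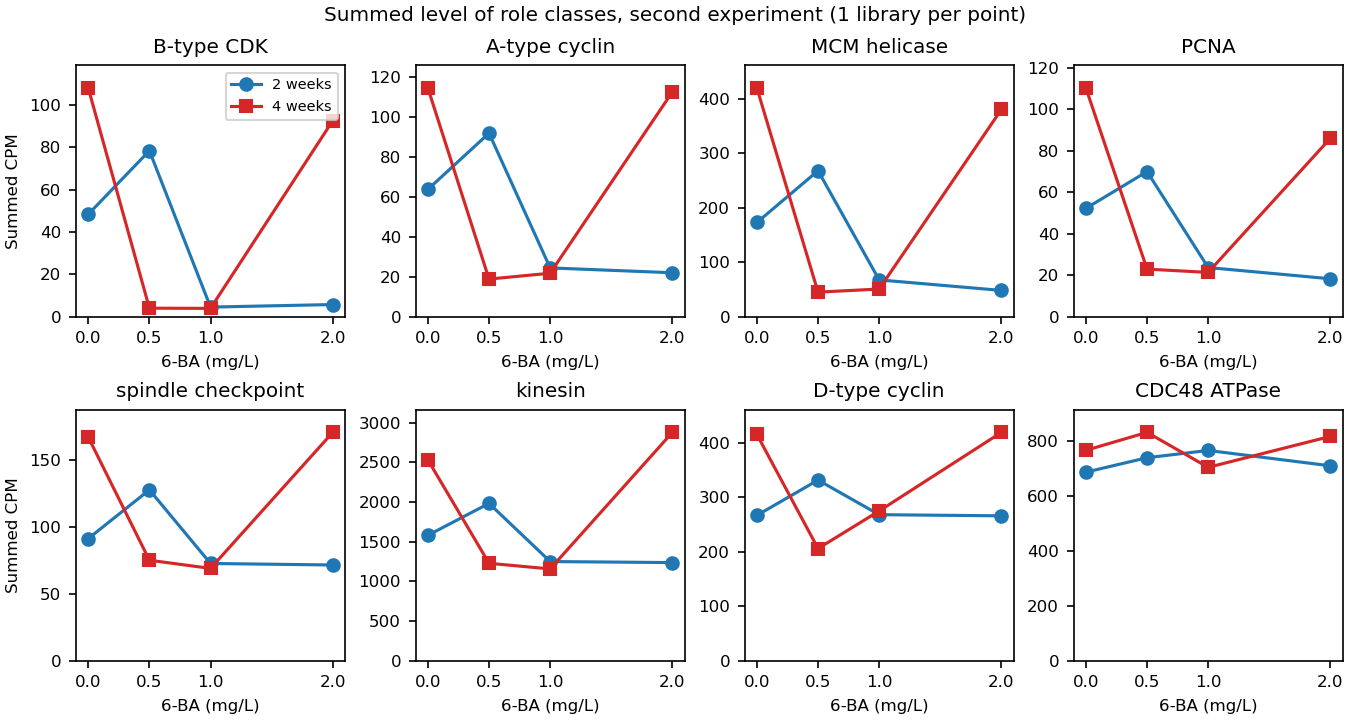
Summed CPM of 8 role classes against 6-BA dose at 2 weeks (circles) and 4 weeks (squares) in the second experiment, 1 library per point; the y axes start at 0 and differ in scale. At 2 weeks B-type CDKs peak at 0.5 mg/L and stand at 4.48 and 5.69 CPM at 1.0 and 2.0 mg/L, at 4 weeks they stand at 3.98 and 3.87 CPM at 0.5 and 1.0 mg/L and at 92.6 CPM at 2.0 mg/L, and CDC48 stays between 688.0 and 833.1 CPM.

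The other mitotic genes differed among themselves. The CDC20.2-like gene LOC110115801 had the widest range of the 163 genes, with 957, 1524, 1 and 2 counts at the rising doses for 2 weeks and 1845, 0, 13 and 1791 for 4 weeks. At 0.5 mg/L for 4 weeks it was at least 541.6-fold lower than at 0 mg/L. CDC20.2 (LOC110096787) did not share this, with 10.6 to 24.1 CPM over the 8 libraries. The other CDC20 genes tested (LOC110101602, LOC110109401 and LOC110101646) had the same lowest libraries as cyclin-B1-1, against 14.0% of all features. Their ranges were 2.548, 2.472 and 1.31 on the log2 scale. Aurora-1-like (LOC110095222), of the kinases that act on chromosomes and the spindle in mitosis, had 11.51, 19.5, 0.795 and 0.365 CPM for 2 weeks and 24.7, 1.37, 1.20 and 24.7 CPM for 4 weeks. Aurora-1 (LOC110095210) stayed between 22.3 and 30.7 CPM. Aurora-3-like (LOC110099712), at a low level, went another way. Its differences from 0 mg/L in log2(CPM + 1) were -0.097, 0.135 and 1.327 at 0.5, 1.0 and then 2.0 mg/L for 2 weeks. For 4 weeks they were 1.076, 1.49 and 1.784. Of the 6 spindle checkpoint genes 4 had the same lowest libraries, against 14.0% of all features: BUB1 (LOC110107153), BUBR1, MAD2 and BUB3.1. BUB1 had 6.79, 12.5, 1.01 and 1.39 CPM for 2 weeks and 20.8, 0.522, 0.935 and 16.97 CPM for 4 weeks. MAD1 (LOC110110834) stayed between 40.0 and 61.0 CPM.

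Kinesins split between those with a wide span and those that hardly varied. Of 61 tested, 32 were lowest in the 4 libraries where cyclin-B1-1 was lowest, against 14.0% of all features. KIN-14J (LOC110111695) had 320, 527, 1 and 2 counts for 2 weeks and 766, 0, 9 and 923 for 4 weeks. KIN-5A (LOC110091971), of a family that pushes spindle poles apart, had 13.8, 25.1, 0.940 and 0.219 CPM for 2 weeks and 37.4, 0.456, 0.735 and 39.0 CPM for 4 weeks. The other tested genes described as KIN-5A (LOC110106002, LOC114580583, LOC110110736, LOC110092301 and LOC114580584) did not have the same 4 lowest libraries. LOC114580584, which fell with 6-BA in the first experiment, had a range of 0.844 on the log2 scale, again at a low level. KIN-7A (LOC110109302) had 10.8, 17.3, 0.434 and 0.802 CPM for 2 weeks and 31.2, 1.04, 0.200 and 26.2 CPM for 4 weeks. KIN-10C (LOC110094173) had 10.7, 20.9, 0.434 and 0.146 CPM for 2 weeks and 26.9, 0.391, 0.401 and 29.6 CPM for 4 weeks. Thus 2 of the kinesins that rose by under 1 on the log2 scale with 6-BA in the first experiment were among the 10 genes with the widest range here. KIN-13A (LOC110104401) ranged only from 119.4 to 157.2 CPM, and KINESIN LIGHT CHAIN-RELATED 1 (LOC110103234) from 77.8 to 110.0 CPM.

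D-type cyclins, which link outside signals to the entry into the cycle, were divided too. Of 15 tested, 6 had the same lowest libraries as cyclin-B1-1, against 14.0% of all features. Cyclin-D3-2 (LOC110104947) had 12.6, 22.6, 0.795 and 0.948 CPM for 2 weeks and 31.6, 0.652, 2.27 and 24.7 CPM for 4 weeks. Cyclin-D3-1 (LOC110116725), the most abundant of them per transcript length, stayed between 69.9 and 104.2 CPM, and cyclin-D2-1 (LOC110111701) between 58.5 and 91.2 CPM. Another gene described as cyclin-D3-1 (LOC110106939) had a range of 3.296 on the log2 scale, without the same lowest libraries. Another described as cyclin-D2-1 (LOC110098325) had a range of 4.084, with the same lowest libraries. Cyclin-D4-1 (LOC110115423), which fell with 6-BA in the first experiment, had 3.40, 4.75, 3.47 and 2.70 CPM for 2 weeks and 5.46, 3.52, 2.204 and 4.57 CPM for 4 weeks.

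The CDC48 genes and the other CDKs had the lowest median ranges of the 16 roles, 0.586 and 0.602 on the log2 scale. Their widest ranges were 0.957 and 1.15. Of the 9 CDC48 genes and the 10 other CDKs, none had the 4 lowest libraries of cyclin-B1-1, against 14.0% of all features. With so few genes, these counts are near that share. Pearson r with cyclin-B1-1 took both signs, such as -0.899 for CDKE-1 (LOC110107567) and 0.747 for CDKF-1 (LOC110103033). CDKG-2 (LOC110104464), the most abundant of the other CDKs, had 583.3, 397.8, 391.2 and 691.4 CPM for 2 weeks and 331.6, 484.6, 723.2 and 453.7 CPM for 4 weeks. CDKF-3 (LOC110093118) had its 2 highest levels, 119.5 and 103.1 CPM, at 0.5 and 1.0 mg/L for 4 weeks. Of the 9 CDK inhibitors 2 shared the 4 lowest libraries, which is near the 14.0% of all features. CDK inhibitor 1 did not, and was lowest in the 0 mg/L library for 4 weeks, at 72.2 CPM, and highest at 0.5 mg/L for 4 weeks, at 124.4 CPM. Cyclin-U1-1 (LOC110106987) was likewise low at 0 and 2.0 mg/L for 4 weeks, at 11.7 and 9.37 CPM.

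Over all roles, 72 of 163 genes, 44.2%, had the same 4 lowest libraries as cyclin-B1-1, against 14.0% of all features tested. Their level had a Pearson r over 0.9 with that of cyclin-B1-1 across the 8 libraries in 55 genes, 33.7%, against 6.50% of all features. Cyclin-B1-1 is itself one of them and was chosen with its values known. The nearest were cyclin-A1-4, with an r of 1.00, and LOC110114934, with 0.999; these points share library depth and scaling, and the r is a description only. Of the 120 tested genes of the wider pathway, 52 or 43.3% had the same 4 lowest libraries.

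A TPX2 gene (LOC110105384), whose product builds spindle microtubules, shows this outside the rule, with 29.7, 36.3, 0.434 and 0.219 CPM at the rising doses for 2 weeks and 48.2, 0.652, 0.802 and 63.9 CPM for 4 weeks. Of the other genes described as TPX2, LOC110101871 had the same lowest libraries, but LOC110098365 and LOC110099127 did not. LOC110098365 had its highest level, 11.8 CPM, at 1.0 mg/L for 2 weeks. A KNOLLE-like syntaxin (LOC110106372), of the cytokinesis machinery, had 23.3, 38.5, 0.868 and 2.92 CPM for 2 weeks and 40.9, 0.261, 1.40 and 38.2 CPM for 4 weeks. MYB3R-3 (LOC110110250) ran the other way, with 8.62, 6.54, 15.4 and 9.04 CPM for 2 weeks and 3.96, 17.1, 11.8 and 5.77 CPM for 4 weeks. The other MYB3R-3 gene (LOC110108439) had 17.6, 14.3, 15.7 and 22.5 CPM for 2 weeks and 10.8, 23.5, 20.0 and 14.6 CPM for 4 weeks. The genes of this paragraph were chosen after their values were seen.

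Each dose was next compared with 0 mg/L at the matching week, 1 library each, and these differences have no replicate check and no test. At 0.5 mg/L for 2 weeks, 4 genes were higher and 2 lower by over 1 in log2(CPM + 1), or 2.45% and 1.23%, against 2.75% and 2.44% of all features. At 1.0 mg/L for 2 weeks 0 were higher and 51 lower, 31.3%, against 2.78% higher and 7.60% lower among all features. At 2.0 mg/L for 2 weeks 1 was higher and 52 lower, 31.9%, against 2.20% and 8.62% of all features. At 0.5 mg/L for 4 weeks 3 were higher and 79 lower, 48.5%, against 12.1% and 14.9% of all features.

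At 1.0 mg/L for 4 weeks 5 were higher and 81 lower, 49.7%, against 11.9% and 13.7% of all features. At 2.0 mg/L for 4 weeks 3 were higher and 2 lower, 1.84% and 1.23%, against 2.58% and 2.37% of all features. The medians of the genes were 0.24, -0.36 and -0.33 at 0.5, 1.0 and then 2.0 mg/L for 2 weeks, and -0.91, -0.99 and 0.06 for 4 weeks. The medians of all features lay between -0.01 and 0.03 in these comparisons. The dose comparisons of a week share their 0 mg/L library, and the 0 mg/L libraries themselves differed. At 4 weeks against 2 weeks, both at 0 mg/L, 44 genes were higher and 2 lower, 27.0% and 1.23%, against 7.56% and 7.16% of all features, with a median of 0.58.

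**Figure D5:**
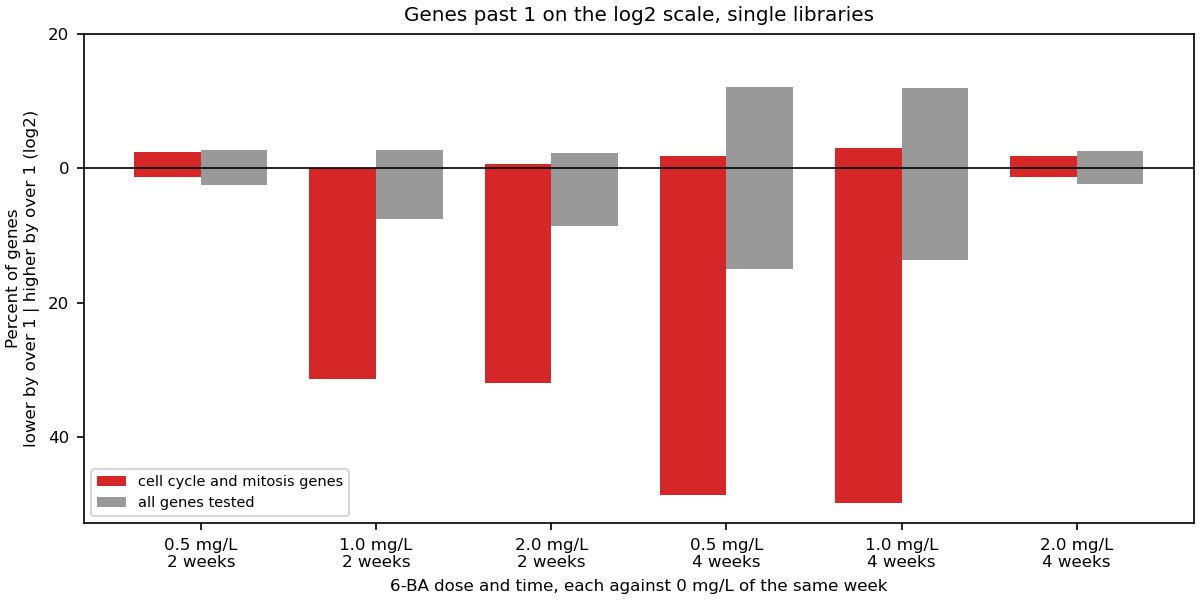
Percent of cell cycle and mitosis genes (red) and of all features tested (grey) higher (above 0) or lower (below 0) by over 1 in log2(CPM + 1) at each 6-BA dose relative to the 0 mg/L library of its week, 1 library each. Red bars reach 31.3% and 31.9% lower at 1.0 and 2.0 mg/L for 2 weeks and 48.5% and 49.7% lower at 0.5 and 1.0 mg/L for 4 weeks.

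An additive model of week and any 6-BA was fitted to the 8 libraries. In edgeR's quasi-likelihood test (Benjamini-Hochberg) 0 of 163 genes passed for 6-BA at any dose, against 0% of all features; 1 had an unadjusted p under 0.05 and DESeq2 called 0. For 4 weeks against 2 weeks 0 passed, against 0% of all features; 2 had an unadjusted p under 0.05 and DESeq2 called 0. The spread in this model, a biological coefficient of variation of 0.499, includes what the model cannot describe, such as the opposite differences at 2 and 4 weeks for 0.5 and 2.0 mg/L. In the additive fit of the first experiment it was 0.122.

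Other measures moved with the pattern, and their part in it was not tested. Mannose-binding lectin genes took 6.63%, 2.02%, 8.85% and 7.63% of counts at 0, 0.5, 1.0 and then 2.0 mg/L for 2 weeks and 1.23%, 7.20%, 4.92% and 3.25% for 4 weeks. The 3 lowest of these shares were in libraries where cyclin-B1-1 was abundant, but the share at 0 mg/L for 2 weeks, where it was also abundant, was high. The leaf mesophyll markers summed to 26560, 26690, 34760 and 41920 CPM for 2 weeks and to 14300, 21040, 21260 and 12950 CPM for 4 weeks, so within each week they were higher where cyclin-B1-1 was near 0. The shoot meristem markers summed to 377.7, 400.6, 500.8 and 381.6 CPM for 2 weeks and to 460.3, 372.1, 376.9 and 419.8 CPM for 4 weeks. At 4 weeks they were thus higher where cyclin-B1-1 was abundant. At 2 weeks they were highest at 1.0 mg/L, where it was near 0. Library totals differed little. In the first experiment, lectin genes took 0.157% to 0.276% of counts.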

How the data were processed

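Poly(A) RNA was sequenced in 16 libraries. Per the submitters' processing notes, HISAT2 2.0.6, Cufflinks 2.2.2 and edgeR (no version) were used, with no role stated; the build used for alignment and the strandedness are not stated in them. The authors deposited raw counts per gene and library, and FPKM with the gene length in bases (another deposited value, used for nothing but FPKM). Per the file headers, descriptions came with the counts, and some of them hold domain names. Of the 171 genes, 169 matched a RefSeq gene table.

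Tests on the counts used edgeR 4.0.16 under R 4.3.3 (filterByExpr, TMM, quasi-likelihood test, Benjamini-Hochberg at 0.05 over all genes). Alternatives were limma 3.58.1 on log2(FPKM + 1), DESeq2 1.42.0, other scalings, no filter on low counts, a replicate block, a slope on dose and each library left out. The procedure was tested on simulated data. The first experiment was fitted with 4 groups, and with NAA plus 6-BA; the second with week plus any 6-BA, and single doses without a test. Of the genes, 3 and 8 were not tested in the first and second experiment because of low counts. A library at 0 was given a floor of 3 counts, and intervals and floors cover counting error only. Named genes were the 5 largest called rises and falls per contrast (mean log2 CPM of at least 0), the 2 with the highest FPKM per role, the 10 with the widest range in the second experiment and the 2 lowest p of the wider pathway; others were chosen after their values were seen. The genes and lists were chosen with earlier results of these data known.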

Additional observations from a re-analysis of the deposited data

Results flagged for a closer look

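In the second experiment the libraries at 2 doses differed from 0 mg/L in opposite directions at 2 and 4 weeks. At 0.5 mg/L the median log2 difference of the cell cycle and mitosis genes from 0 mg/L was 0.237 at 2 weeks and -0.912 at 4 weeks. At 2.0 mg/L it was -0.33 at 2 weeks and 0.056 at 4 weeks. With 1 library for each combination, these differences between the weeks were not tested, and a difference between conditions and one between single libraries cannot be told apart.

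Single libraries stood apart from the others in 3 of 40 groups of 4 libraries examined, where chance gives about 1 in 20. KIN-5C (LOC110092182) had 32.74 CPM in the second 6-BA library, above the 28.6 to 29.2 CPM of the other libraries with 6-BA. KIN-10C (LOC110094173) had 12.4 CPM in the second NAA library, above the 10.4 to 10.6 CPM of the other libraries without 6-BA. CDK inhibitor 5 (LOC110106646) had 9.328 CPM in the second NAA library, above the 8.68 to 8.79 CPM of the other libraries without 6-BA.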

How the results depend on the processing

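For 6-BA against water, where 9 genes passed, DESeq2 called 14, limma on log2(FPKM + 1) 3 and the fit with the replicate number as a block 5. For both hormones against water, where 4 passed, DESeq2 called 8 and limma 1; DESeq2 called 1 for the interaction and 3 for NAA averaged over 6-BA, where edgeR called 0. Leaving out each library in turn gave 1 to 10 genes for 6-BA against water, 0 to 4 for NAA, 0 to 6 for both hormones, 9 to 18 for 6-BA averaged over NAA, and 0 for the interaction, for NAA averaged over 6-BA and for both contrasts of the second experiment. The replicate numbers do not pair the libraries: deviations of same-numbered libraries correlated at -0.151 to 0.206 over 6 pairs of groups, so the block is given here only. Of 504 values of called genes under alternatives, 333 passed with the same direction, 171 no longer passed and 0 reversed.

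Library totals in place of TMM moved the median of all features in single-dose differences by up to -0.242 and made 87 genes lower at 0.5 mg/L for 4 weeks, where TMM gave 79. That alternative, DESeq2's size factors and a pseudocount of 0.5 were chosen after seeing the data and kept every dose's count within 1.5 times. The counts of promoter and protein motifs were not run. There were 2 libraries a group in the first experiment and 1 per condition in the second. Where counts are 0, depth sets the bound, between 0.171 and 0.219 CPM for 3 counts.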
